A study of Rattus norvegicus with 30 samples.

Results

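The genes described are 10 genes of the endothelium of the blood-brain barrier: the efflux pumps Abcb1b and Abcg2, the receptor Lrp1, the carriers Slc2a1 and Mfsd2a, the junction genes Cldn5, Ocln and Tjp1, and the endothelial adhesion genes Pecam1 and Cdh5. They were chosen by symbol, and 8 of the 10 were found among the 17134 genes measured by RNA-seq of brain tissue. Cldn5 and Ocln could not be found under these symbols and are left out. The 30 rats were male Sprague Dawley rats on a normal diet, 10 per group. Wild-type (WT) rats had only their own rat amylin, a hormone of pancreatic β-cells. HIP rats made human amylin in pancreatic β-cells besides rat amylin, and these rats develop type-2 diabetes. Amylin knockout (AKO) rats lacked the hormone. HIP and WT rats were 15 to 16 months old, and the age of these AKO rats is not given in the sources used here. The tissue is called frontal cortex in the sample labels, and the hippocampus or the cerebral cortex elsewhere in the study. Iapp, the amylin gene, was not matched by symbol either, so the knockout could not be checked by its own transcript.

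Values are normalized counts, which the authors made by dividing the reads of each gene by a size factor of the library. Their total per rat was 15.4 M to 17.98 M (median 16.9 M), and the estimated number of reads was 12.9 M to 23.6 M (median 16.3 M), where M stands for mega. The comparisons asked whether the brain expression of barrier genes differed with human amylin (HIP vs. WT) or without amylin (AKO vs. WT), and between both altered genotypes (HIP vs. AKO). Every comparison shares its rats with the others, so values are given side by side.

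Brain endothelial cells are joined by tight junctions that seal the space between them, and so nearly all exchange between blood and brain passes through carriers, receptors and pumps in their membranes. Efflux pumps return drugs and metabolites to the blood, carriers bring in glucose and lipids, and Lrp1 takes up ligands that include β-amyloid and apolipoprotein E. Some of these genes are not limited to endothelium in the brain: Lrp1 is also made by neurons and glia, Slc2a1 and Tjp1 also by astrocytes, whereas Cdh5 and Pecam1 mark endothelium. In bulk tissue, fewer endothelial cells and less RNA per cell cannot be told apart.

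Some libraries stood apart from the others. WT rat 10RT43 had a summed level of 42394 for 5 cerebellum genes, against a median of 36.9 in WT rats, with Gabra6, the most abundant of them, at 17979. Its 6 neocortical genes summed to 3064, the lowest value of any WT rat, and its correlation with each of the remaining rats had a median of 0.852, the lowest of all 30. HIP rat 10RT46 held 22922 for 6 pineal gland genes (Tph1 at 19081) and 18102 for 9 choroid plexus genes (Ttr at 14881), where the HIP medians were 19.9 and 118. HIP rat 12RT23 held 4309 for the cerebellum genes (Gabra6 at 1564), and AKO rat 7AKO19 held 4122 for the choroid plexus genes (Ttr at 3445). In HIP rat 10RT48, 8 microglia genes summed to 12774 (HIP median 4613), with Csf1r at 2496. Besides these, AKO rats 4KAH27 and 6KAH98 stood apart in the barrier genes themselves, as given with each gene. Why they stood apart was not tested, and values without them are given where they move a result.

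**Figure D1:**
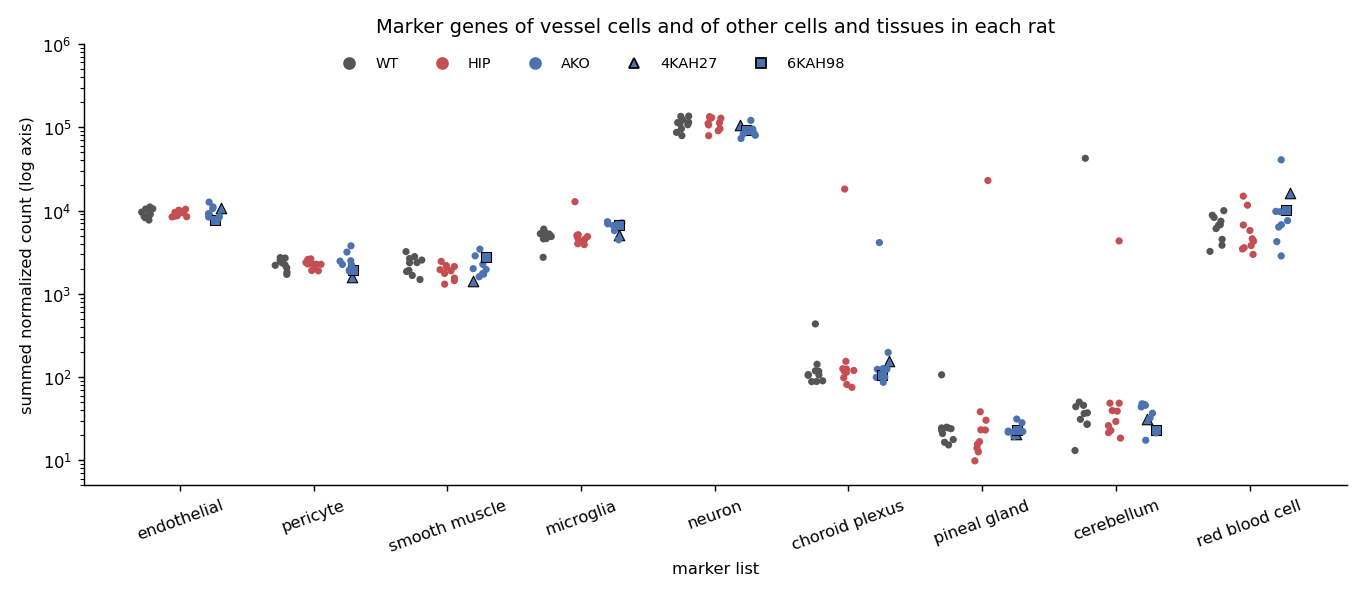
Summed normalized counts (log axis) of marker genes in each rat, by list and group, with 1 point per rat. Endothelial markers spanned 7634 to 12616 over all rats, while the choroid plexus, pineal gland and cerebellum lists were at 4122 or more in single rats and at most 435 in the others.

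Markers of vessel cells were summed in each rat and given by group. The barrier genes were not related to these sums, so their label as endothelial genes was not tested by them. How the barrier genes varied with Cdh5 and with other genes is given further below. All 24 endothelial identity genes that were found of 26 were above 0 in every rat. Their summed level was 7678 to 11023 in WT rats (median 9286), 8377 to 10368 in HIP rats (median 9397) and 7634 to 12616 in AKO rats (median 9023), and the groups overlapped. S1pr1, the most abundant of them, was at 2226, 2171 and 2055 in the medians of WT, HIP and AKO rats. In 10RT43 it was the highest of the WT rats (2839), while the mean log2 value of the list was the lowest of them (7.51). The sum and the mean of the list thus need not move together. The 9 pericyte genes, led by Pdgfrb, summed to medians of 2295, 2263 and 2239 in the same order. The 6 genes of vascular smooth muscle, led by Tagln, summed to medians of 2366 in WT, 1917 in HIP and 1983 in AKO rats. In HIP vs. WT rats 0 of 6 had a higher mean, with a median log2 fold change of -0.27. At an unadjusted p under 0.05, 1 of the 6 was called lower, where 1.46% of all genes were. Without 10RT43, 10RT46 and 10RT48, 5 of the 6 were, beside 499 of all 16992 genes. The rat with the highest endothelial and pericyte sums was AKO rat 4KAH35 (12616 and 3770), which also had the highest Hba-a2, a hemoglobin gene (40576, where the AKO median was 8613).

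Of the 8 genes measured, 5 had a promoter in the RefSeq table of the rat assembly GRCr8, which differs from the rn7 assembly used to align the reads. The 150 bases before the first transcription start listed for each of these 5 are shown, and other starts were not looked at. The windows are ordered by how the genes varied across the 30 rats: the first 3 together, and the last 2 in opposite directions over all rats. The last 2 did not do so in HIP rats alone (r = 0.07), and had r = -0.32 without AKO rats 4KAH27 and 6KAH98. Each of the first 3 was also associated with 24.2% to 31.9% of all genes (limma adjusted p under 0.05). Whether their promoters share any control was not tested. Capitals mark 4 motifs on either strand, named here by the proteins that bind them. GGGCGG is bound by Sp1 and related zinc finger proteins. CCAAT is bound by the trimeric factor NF-Y. ACGTG is the core of the element through which hypoxia-inducible factors act. GGAA is the core of sites for ETS factors, many of which work in endothelium; none of the matches of different motifs overlapped in these windows. The strand of each sequence is minus for Abcb1b (chr4:26280030-26280179), Tjp1 (chr1:128325361-128325510) and Lrp1 (chr7:65346197-65346346), and plus for Slc2a1 (chr5:138002372-138002521) and Abcg2 (chr4:89075324-89075473).
Abcb1b: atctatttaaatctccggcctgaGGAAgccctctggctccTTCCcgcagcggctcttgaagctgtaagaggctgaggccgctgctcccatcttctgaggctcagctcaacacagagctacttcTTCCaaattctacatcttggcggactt
Tjp1: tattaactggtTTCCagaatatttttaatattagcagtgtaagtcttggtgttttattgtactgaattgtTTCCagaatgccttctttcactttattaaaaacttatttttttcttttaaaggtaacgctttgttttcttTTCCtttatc
Lrp1: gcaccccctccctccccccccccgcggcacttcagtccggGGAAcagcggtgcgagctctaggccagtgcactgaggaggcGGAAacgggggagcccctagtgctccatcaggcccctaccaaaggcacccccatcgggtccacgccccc
Slc2a1: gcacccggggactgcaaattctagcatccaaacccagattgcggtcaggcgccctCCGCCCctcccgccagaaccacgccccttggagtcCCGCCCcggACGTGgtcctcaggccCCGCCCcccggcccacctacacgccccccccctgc
Abcg2: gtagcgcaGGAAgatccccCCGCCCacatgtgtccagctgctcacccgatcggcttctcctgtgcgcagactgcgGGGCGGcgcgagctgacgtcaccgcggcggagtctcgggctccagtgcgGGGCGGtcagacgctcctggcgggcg

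Abcb1b and Tjp1 each held 3 matches of GGAA and Lrp1 held 2, with no match of the other motifs in these 3 windows. GGAA is found in 81.1% of the 33469 promoter windows of this length. Slc2a1 held 3 matches of GGGCGG and 1 of ACGTG, and Abcg2 held 3 of GGGCGG and 1 of GGAA. Of all windows, 26.0% held GGGCGG, 10.8% held ACGTG and 23.5% held CCAAT. The share of G and C was 26.7% in Tjp1 and 53.3% in Abcb1b, where the median of all windows was 52.7%, and 71.3%, 72.7% and 72% in Lrp1, Slc2a1 and Abcg2.

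In HIP vs. WT rats, no barrier gene was called. By limma on log2(normalized count + 1), 0 of the 8 genes had an unadjusted p under 0.05, where 2.57% of the 17085 genes tested had one (439 genes); 0 were called higher, where 1.11% of all genes were, and 0 lower, where 1.46% were. At a Benjamini-Hochberg adjusted p under 0.05, 0 of 8 genes and 0 of all genes were called (0%). The log2 fold changes of the 8 genes lay between -0.11 (Lrp1) and 0.12 (Tjp1), 4 above and 4 below 0, with a median of -0.0039, beside a median of 0.0018 over all genes.

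In AKO vs. WT rats, the mean of Abcg2 was lower and that of Slc2a1 higher, both at an unadjusted p only. At that threshold 2 of 8 genes were called, where 9.34% of 17058 genes were. One direction each was seen: 1 gene was higher, where 5.23% of all genes were called higher, and 1 was lower, where 4.12% were called lower. At an adjusted p under 0.05, 0 of 8 genes were called by limma, where 0.0997% of all genes were (17 genes), and the smallest adjusted p of the 8 was 0.517. The median log2 fold change was -0.052 over the 8 genes and 0.0014 over all genes.

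In HIP vs. AKO rats the same genes, Abcg2 and Slc2a1, had an unadjusted p under 0.05, which 12.7% of 17092 genes had. Abcg2 was higher in HIP rats, where 5.85% of all genes were called higher, and Slc2a1 lower, where 6.90% were called lower. At an adjusted p under 0.05, 0 of 8 genes were called by limma, against 0.170% of all genes (29 genes), and the smallest adjusted p of the 8 was 0.262. The median log2 fold change was -0.029 over the 8 genes and 0.0047 over all genes.

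**Figure D2:**
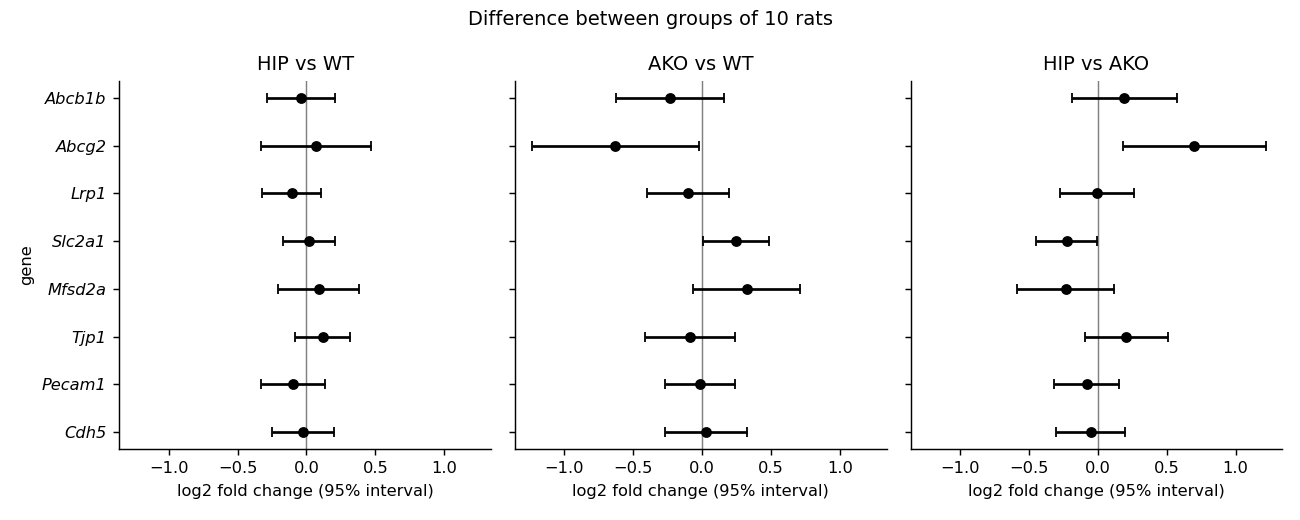
Log2 fold changes of the 8 barrier genes in the 3 comparisons, from limma on 10 rats per group; points are estimates and bars are 95% intervals. The intervals leave out 0 for Abcg2 and Slc2a1 in AKO vs. WT and in HIP vs. AKO rats, and include 0 for all 8 genes in HIP vs. WT rats.

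Among the efflux pumps, Abcg2 (also called Bcrp, ENSRNOG00000007041) moves drugs, urate and other organic anions back into the blood. Its normalized count was 79.4 to 289 in WT rats (median 239), 157.8 to 263 in HIP rats (median 224) and 32.9 to 226 in AKO rats (median 153.7). All 10 AKO rats were below the median of the WT rats, and 2 of them were below the lowest WT rat, while 5 of 10 HIP rats were above the highest AKO rat. The groups overlapped. The means were 210 ± 65.0 in WT, 211 ± 40.3 in HIP and 142.4 ± 58.5 in AKO rats (SD, n = 10 per group).

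The log2 fold change of Abcg2 was -0.63 ± 0.29 in AKO vs. WT rats (SE, n = 10 per group; limma p = 0.0427, adjusted p = 0.517) and 0.70 ± 0.25 in HIP vs. AKO rats (p = 0.0101, adjusted p = 0.262). In HIP vs. WT rats it was 0.07, with a 95% interval of -0.33 to 0.47. The 2 lowest AKO values came from 4KAH27 (32.9) and 6KAH98 (79.0). Without these rats the log2 fold change was -0.30 in AKO vs. WT rats (p = 0.177) and 0.38 in HIP vs. AKO rats (p = 0.0158). The unadjusted call in AKO vs. WT rats was also lost without 10RT43, the library with cerebellum markers (-0.57, p = 0.0678), and it was kept in 9 of 20 fits without single rats (-0.77 to -0.42). Of the 10 AKO rats 4, among them 4KAH27 and 6KAH98, have names with KAH in place of AKO, and the sources used here do not say whether they are of the same line and age. With only the 6 AKO rats whose names hold AKO, the values of Abcg2 were -0.24 (p = 0.339) and 0.31 (p = 0.0524). The lowest WT rat, 10RT39 (79.4), lay far below the next one (127), and without it the log2 fold change in HIP vs. WT rats was -0.07 (p = 0.609).

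Abcb1b, which encodes a P-glycoprotein that pumps out many drugs, is read here with a limit. Its row joins 2 Ensembl identifiers (ENSRNOG00000008012 and ENSRNOG00000066042), and Abcb1a, a close copy and the next protein-coding gene beside it in the RefSeq table, was not matched by symbol. Reads of both copies may have been counted together or split, so the values may not be those of Abcb1b alone. The normalized count was 419 to 732 in WT rats (median 556), 402 to 659 in HIP rats (median 581) and 259 to 866 in AKO rats (median 521). WT and HIP rats covered nearly the same range, and AKO rats lay on both sides of it, with 3 below the lowest and 2 above the highest WT rat. The coefficient of variation was 19.1% in WT, 18% in HIP and 37.8% in AKO rats. The low end was 6KAH98 (259) and 4KAH27 (273), and the high end was 4KAH35 (866). The fold change (log2) was -0.04 ± 0.12 in HIP vs. WT (SE, n = 10 per group) and -0.23 ± 0.19 in AKO vs. WT rats, and neither was called (limma p = 0.734 and 0.228). Without 4KAH27 and 6KAH98 the AKO vs. WT value of Abcb1b was -0.02 (p = 0.887).

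Lrp1, the receptor (ENSRNOG00000025053), had normalized counts of 4826 to 8075 in WT rats (median 5897), 4409 to 7115 in HIP rats (median 5530) and 2957 to 8119 in AKO rats (median 5905). The 3 groups overlapped over most of their ranges, and the lowest value of all 30 rats was that of AKO rat 6KAH98 (2957), far from the next lowest AKO rat (4973). Its log2 fold change was -0.11 in HIP vs. WT rats, with a 95% interval of -0.32 to 0.11 (limma p = 0.308). It was -0.10 in AKO vs. WT rats (p = 0.481), and 0.0096 without 4KAH27 and 6KAH98 (p = 0.934). In this bulk tissue, the HIP vs. WT interval leaves out a mean change in Lrp1 mRNA below -0.32 or above 0.11 (log2). Neurons and glia also make Lrp1, so a change in its endothelial part was not tested. In brain capillary lysates, a different sample, the study reported higher Lrp1 mRNA in HIP than in WT rats by qRT-PCR.

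**Figure D3:**
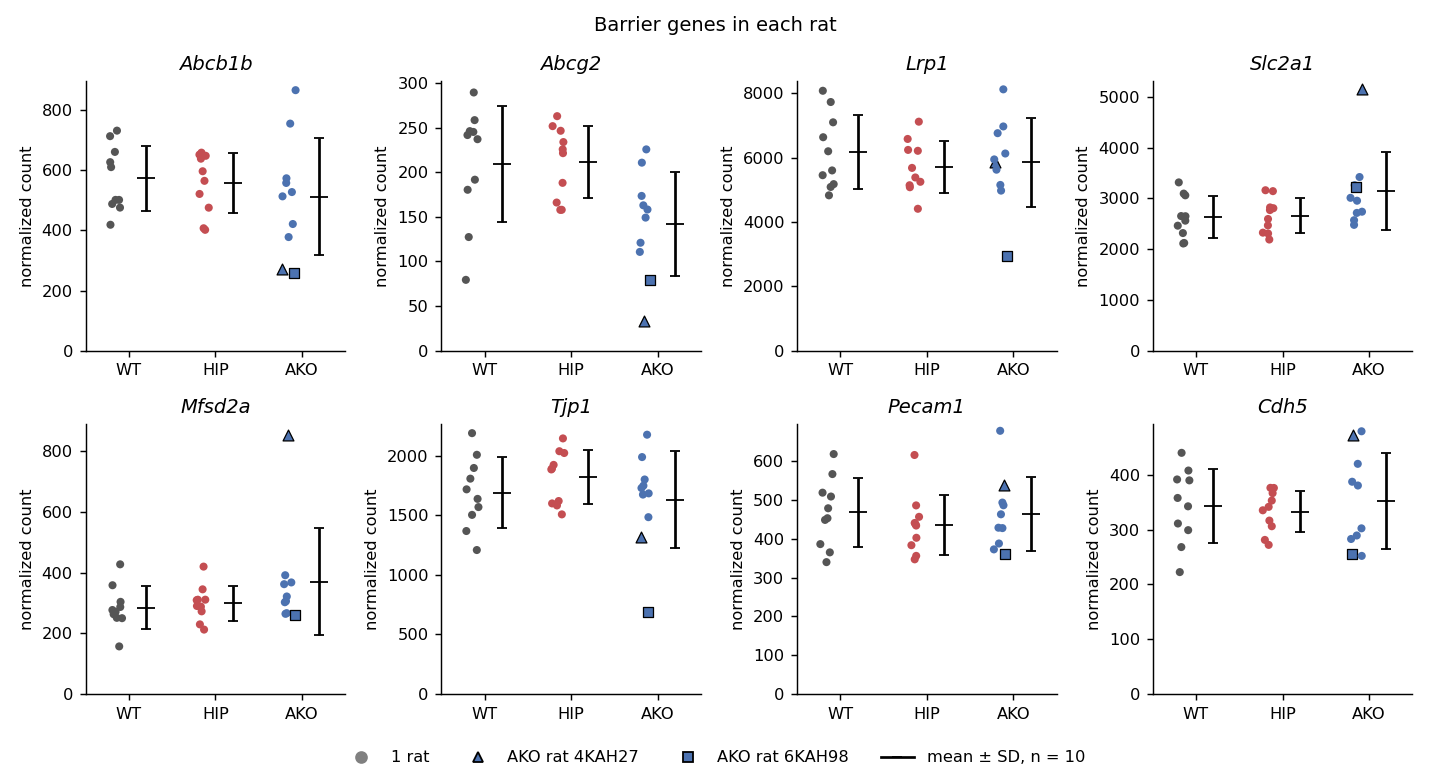
Normalized counts (linear axes from 0) of the 8 barrier genes in each of the 30 rats, with the mean and SD of each group of 10 beside the points. AKO rat 4KAH27 (triangle) is highest in Slc2a1 (5158) and Mfsd2a (854) and lowest in Abcg2 (32.9), and AKO rat 6KAH98 (square) is lowest in Tjp1 (691), Lrp1 (2957) and Abcb1b (259).

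Of the carriers, Slc2a1 (ENSRNOG00000007284) encodes the glucose transporter GLUT1, by which glucose crosses the endothelium. Its normalized count was 2111 to 3314 in WT rats (median 2604), 2190 to 3160 in HIP rats (median 2681) and 2478 to 5158 in AKO rats (median 2982). Of the AKO rats, 8 of 10 were above the WT median and 2 above the highest WT rat, and the ranges overlapped. The means were 2634 ± 412, 2658 ± 340 and 3153 ± 770 in WT, HIP and AKO rats (SD, n = 10 per group).

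The log2 fold change of Slc2a1 was 0.24 ± 0.12 in AKO vs. WT rats (SE, n = 10 per group; limma p = 0.0467, adjusted p = 0.526) and -0.23 ± 0.11 in HIP vs. AKO rats (p = 0.0464, adjusted p = 0.385). In HIP vs. WT rats it was 0.02, with a 95% interval of -0.17 to 0.21. AKO rat 4KAH27 had 5158, and the highest of the other 29 rats had 3420. Without 4KAH27 and 6KAH98 the log2 fold change was 0.14 in AKO vs. WT (p = 0.141) and -0.12 in HIP vs. AKO rats (p = 0.139), so neither unadjusted call remained. Leaving out single rats moved the AKO vs. WT value between 0.16 and 0.28, and the unadjusted call was kept in 7 of 20 such fits, and in 8 of 20 for HIP vs. AKO rats. With only the AKO-named rats Slc2a1 was at 0.10 (p = 0.339) and -0.08 (p = 0.359), and without 10RT43, 10RT46, 10RT48, 12RT23, 7AKO19, 4KAH27 and 6KAH98 it was at 0.12 (p = 0.207) and -0.07 (p = 0.451).

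Mfsd2a (ENSRNOG00000014008) encodes a carrier of lysophosphatidylcholine with docosahexaenoic acid and keeps vesicle transport across the endothelium low. Its normalized count was 156.7 to 427 in WT rats (median 274), 212 to 420 in HIP rats (median 300) and 261 to 854 in AKO rats (median 313). The lowest value was that of WT rat 10RT43, the library with cerebellum markers, and the highest that of AKO rat 4KAH27, 2.95 times the median of the other 29 rats. The remaining AKO rats reached at most 391, below the highest WT rat. For Mfsd2a the log2 fold change was 0.09 in HIP vs. WT (limma p = 0.538) and 0.32 ± 0.19 in AKO vs. WT rats (SE, n = 10 per group; p = 0.101), and neither was called. The AKO vs. WT value was 0.39 without WT rat 10RT44, with an unadjusted call (p = 0.0479) that no other fit without a single rat gave, 0.18 without 4KAH27 (p = 0.216) and 0.21 without 4KAH27 and 6KAH98 (p = 0.158).

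4KAH27 also stood apart in single genes outside the barrier, which were picked because they were highest in it and stand for no wider group. Socs3, a feedback inhibitor of cytokine signalling, was at 1061 in this rat and at most 110 in the other 29, and Hmox1, which breaks down heme, was at 1040 against at most 154.8. Sgk1 was at 5098 (at most 2185 in the others) and Fkbp5 at 3988 (at most 1656). In the same library Slc2a1, Mfsd2a and Cdh5 (473) were high for the group, Abcb1b and Abcg2 were low, and Lrp1 (5868) was close to the median of the other AKO rats (5942).

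Tjp1 (ZO-1, ENSRNOG00000011077), a scaffold that ties junction proteins to the cytoskeleton, had normalized counts of 1208 to 2190 in WT rats (median 1678), 1508 to 2146 in HIP rats (median 1889) and 691 to 2177 in AKO rats (median 1707). All HIP rats lay within the WT range, and so did 9 of 10 AKO rats, the exception being 6KAH98 (691). Tjp1 had a log2 fold change of 0.12 ± 0.10 in HIP vs. WT (SE, n = 10 per group; limma p = 0.237) and -0.09 ± 0.16 in AKO vs. WT rats (p = 0.582). Without 4KAH27 and 6KAH98 the latter was 0.09 (p = 0.387).

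Pecam1 (CD31, ENSRNOG00000066008), an adhesion molecule of endothelial contacts, was at 340 to 618 in WT rats (median 466), 347 to 616 in HIP rats (median 436) and 360 to 678 in AKO rats (median 446). The HIP rats lay within the WT range, and 8 of 10 were below the WT median; the highest HIP rat was 10RT48 (616), the library with high microglia genes, where the next had 486. Pecam1 is also found in some leukocytes and platelets. The log2 fold change was -0.10 in HIP vs. WT (limma p = 0.393) and -0.02 in AKO vs. WT rats (p = 0.897). The HIP vs. WT value of Pecam1 was -0.16 without 10RT48 (p = 0.153) and -0.20 without 10RT43, 10RT46 and 10RT48 (p = 0.0600), which was not called either. In the latter fit 5 of 8 microglia genes (median -0.22) and 5 of 6 smooth muscle genes (median -0.41) were lower at an unadjusted p under 0.05, beside 499 of all 16992 genes, and a shift of cell types cannot be told apart from one of Pecam1 per cell.

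Cdh5 (VE-cadherin, ENSRNOG00000013324), the cadherin of endothelial adherens junctions, was at 222 to 440 in WT rats (median 350), 272 to 376 in HIP rats (median 338) and 252 to 479 in AKO rats (median 341). HIP rats fell within the WT range, and 2 of 10 AKO rats, 4KAH35 and 4KAH27, were above the highest WT rat. The log2 fold change was -0.03 in HIP vs. WT, with a 95% interval of -0.25 to 0.20 (limma p = 0.810), and 0.03 in AKO vs. WT rats (p = 0.857). With the log2 value of Cdh5 of each rat as a covariate, Abcg2 kept a log2 fold change of -0.61 in AKO vs. WT (p = 0.0419) and 0.66 in HIP vs. AKO rats (p = 0.0122). Slc2a1 was at 0.23 in AKO vs. WT (p = 0.0275) and lost its unadjusted call in HIP vs. AKO rats (-0.20, p = 0.0532).

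The other genes of the barrier, in lists of pumps, receptors, carriers, junctions, endothelial identity, Wnt signalling and endothelial activation, were found for 78 of 85. By limma, 0 of 78 had an adjusted p under 0.05 in any comparison. At an unadjusted p under 0.05, 0 were higher and 3 lower in HIP vs. WT rats, 5 higher and 2 lower in AKO vs. WT rats, and 3 higher and 6 lower in HIP vs. AKO rats, where 1.11% and 1.46%, 5.23% and 4.12%, and 5.85% and 6.90% of all genes were called higher and lower. Their median log2 fold changes were -0.016, 0.023 and -0.035 in this order. Without 4KAH27 and 6KAH98, 7 were higher and 1 lower in AKO vs. WT rats, beside 974 and 763 of all 17041 genes. In HIP vs. AKO rats 4 were then higher and 12 lower, beside 1119 and 1225 of all 17084 genes. The medians of these 2 fits were 0.097 and -0.084. The 3 genes with the smallest p in HIP vs. WT rats were lower in HIP rats: Ager (-0.60, p = 0.0262), a receptor of glycated proteins and β-amyloid, Slc38a5 (-0.34, p = 0.0478), a glutamine carrier, and Sox17 (-0.23, p = 0.0494), a transcription factor of arterial endothelium. Without 10RT43, 10RT46 and 10RT48, Ager (-0.36, p = 0.106) and Slc38a5 (-0.35, p = 0.0698) were no longer called.

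In AKO vs. WT rats, 4 of 7 genes of caveolae, fenestrae and activated endothelium were higher and 1 lower at an unadjusted p under 0.05 (5.23% and 4.12% of all genes were), with a list median of 0.28; without 4KAH27 and 6KAH98, 3 were higher and 1 lower, beside 974 and 763 of all 17041 genes. The leukocyte adhesion molecules Icam1 (0.52, limma p = 0.00724, adjusted p = 0.352) and Vcam1 (0.28, p = 0.0102, adjusted p = 0.379) had higher means in AKO rats. Icam1 was at 67.0 to 120 in WT and at 82.6 to 272 in AKO rats, with 4KAH27 highest, and without 4KAH27 and 6KAH98 its log2 fold change was 0.40 (p = 0.0148). Plvap, the diaphragm protein of leaky vessels, was lower (-0.98, p = 0.0102, adjusted p = 0.379), and its highest WT value was 911 in 10RT43, where the next WT rat had 163; without 10RT43 the value was -0.67 (p = 0.00438). In HIP vs. AKO rats the smallest p-values were those of Sox17 (-0.37, p = 0.00348, adjusted p = 0.198), Cd34 (0.41, p = 0.00451) and Cav1 (-0.30, p = 0.00496), which coats caveolae. Of the 8 microglia markers, 4 were higher in AKO than in WT rats at an unadjusted p under 0.05, beside the same 5.23% of all genes. Their list median was 0.29, and Tmem119 (-0.48, limma p = 0.0624) and P2ry12 (-0.08) had lower means. Without 4KAH27 and 6KAH98, 5 were higher and 1, Tmem119, was lower (p = 0.0349), with a median of 0.42, beside the same 974 and 763 genes. In that fit 1 of the 8 had an adjusted p under 0.05, beside 43 of all 17041 genes. Without 10RT43, 4 were higher and 1, Tmem119, was lower (p = 0.0111), with a median of 0.19, beside 946 and 800 of all 17025 genes. Microglia genes summed to a median of 5022 in WT, 4613 in HIP and 6681 in AKO rats. The 5 neuron markers, led by Snap25 (-0.30, p = 0.0315), all had lower means in AKO than in WT rats, and their sums had medians of 112014 in WT, 112046 in HIP and 91501 in AKO rats. In HIP vs. AKO rats, 4 microglia genes were lower and 1 higher, 2 of 8 astrocyte genes were lower and Snap25 was higher (0.33, limma p = 0.0118) at an unadjusted p under 0.05. Lower too were 1 of 9 pericyte genes (Cspg4, -0.42, p = 0.00147) and 1 of 6 smooth muscle genes (Des, -0.42, p = 0.0240). Of all genes 5.85% were higher and 6.90% lower. Whether called or not, 6 of 9 pericyte, 4 of 8 astrocyte and 0 of 6 smooth muscle genes had higher means in HIP rats. Their list medians were 0.083, -0.0055 and -0.20 in this order, so Cspg4 does not stand for the pericyte list. Without 10RT46 and 10RT48, 3 microglia genes had an adjusted p under 0.05 by limma, beside 101 of all 17041 genes. Without 4KAH27 and 6KAH98, 1 microglia and 1 pericyte gene had one, beside 103 of all 17084 genes. The part of microglia, neurons or other cell types in the differences of the barrier genes was not tested.

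Across rats, the barrier genes did not vary as 1 group. Correlations were computed over the 30 rats from log2 values centred on the group mean, for 28 pairs of genes, with permutation p-values (two-sided, 100000 resamples within groups, smallest possible value 1e-05). Adjusted p-values come from limma fits of every gene on the log2 value of 1 barrier gene with group as a covariate, over all 17102 genes. Abcb1b and Tjp1 had the highest correlation, with r = 0.83 (permutation p = 1e-05) and rho = 0.79 (p = 1e-05), and an adjusted p of 5.8e-05. Within groups r was 0.91 in WT, 0.71 in HIP and 0.84 in AKO rats. Without the 2 rats farthest from the median in Abcb1b, 6KAH98 and 4KAH27, r was 0.80.

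Lrp1 and Tjp1 had r = 0.80 (permutation p = 3e-05) and rho = 0.68 (p = 0.00015), with an adjusted p of 1.2e-05. Without the 2 rats farthest in Lrp1, 6KAH98 and 6KAH99, r was 0.61. Abcb1b and Lrp1 had r = 0.65 (p = 0.0004) and rho = 0.61 (p = 0.00072), with an adjusted p of 0.0023, and r = 0.59 without 6KAH98 and 4KAH27. Such relations were common among all genes. Tjp1 was associated with 3 of the 7 other barrier genes at an adjusted p under 0.05 and with 31.9% of all genes, Abcb1b with 4 of 7 and 24.2%, and Lrp1 with 2 of 7 and 26.2%. Without 4KAH27 and 6KAH98 the genes associated with Tjp1 dropped from 5460 to 2424, those with Lrp1 from 4480 to 1198, and those with Abcb1b from 4139 to 553, out of 17093 genes, with 3, 2 and 4 of 7 barrier genes at an adjusted p under 0.05. The 3 genes of Tjp1 were the same (Abcb1b, Lrp1 and Pecam1), whereas among the 4 of Abcb1b, Abcg2 was lost (limma adjusted p from 0.0182 to 0.631) and Cdh5 entered (0.0389), beside Lrp1, Tjp1 and Pecam1.

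**Figure D4:**
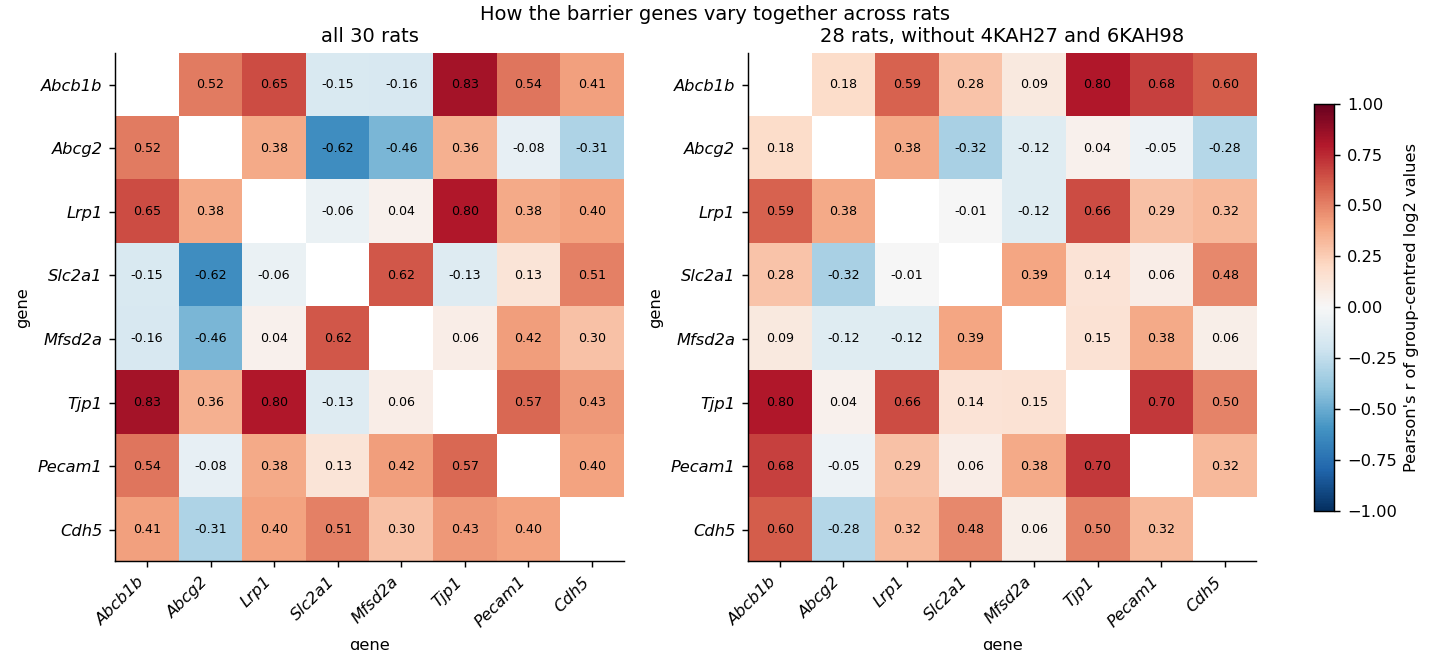
Pearson's r of group-centred log2 values for each of the 28 pairs of barrier genes, over 30 rats (left) and over 28 rats without 4KAH27 and 6KAH98 (right). Abcb1b and Tjp1 keep r at 0.83 and 0.80, while Abcg2 and Slc2a1 go from -0.62 to -0.32.

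The carriers and Abcg2 followed another pattern, which rested on few rats. Slc2a1 and Mfsd2a had r = 0.62 (permutation p = 0.00437) and rho = 0.44 (p = 0.019), with an adjusted p of 0.043. Without 4KAH27 and 10RT47, the rats farthest in Slc2a1, r was 0.37. Abcg2 and Slc2a1 had r = -0.62 (p = 0.00389) and rho = -0.53 (p = 0.00373), with an adjusted p of 0.046, and r was -0.32 without 4KAH27 and 6KAH98. Within groups this r was -0.40 in WT, 0.07 in HIP and -0.90 in AKO rats. Slc2a1 was associated with 2 of 7 barrier genes, against 0.830% of all genes, Abcg2 with 1 of 7 (0.924%) and Mfsd2a with 1 of 7 (4.32%), but 0 of 7 passed for any of the 3 without 4KAH27 and 6KAH98. Over all 17093 genes of these fits, 2 were then associated with Slc2a1 and 0 with Abcg2, so the loss there was not limited to barrier genes, while those with Mfsd2a went from 738 to 946.

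**Figure D5:**
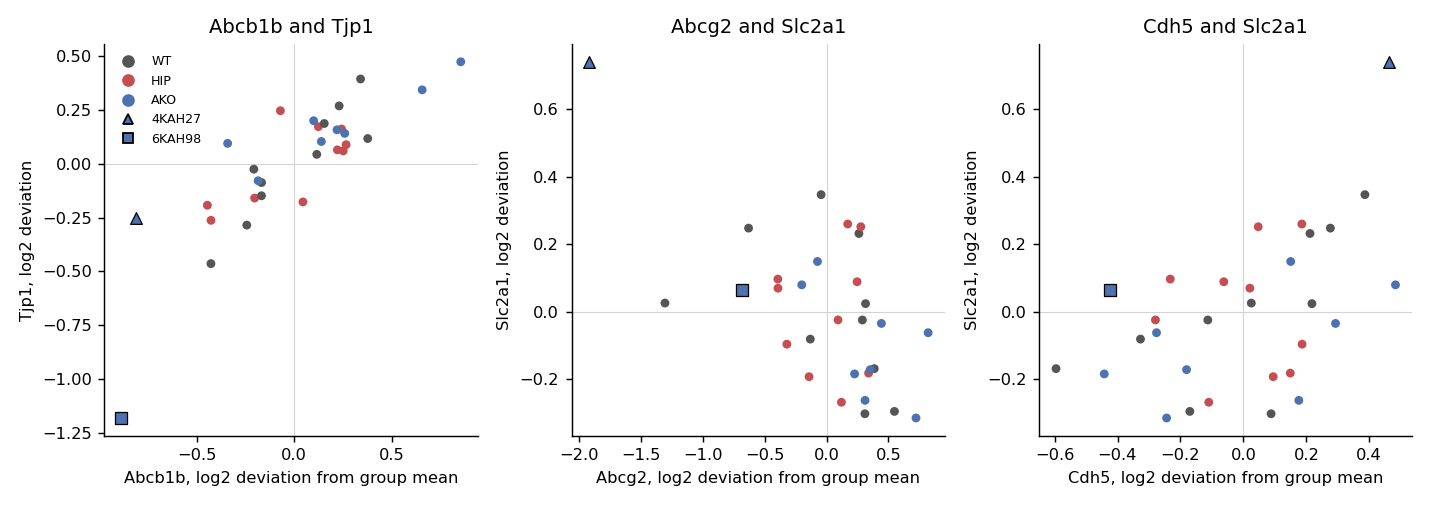
Group-centred log2 values of Abcb1b and Tjp1 (left), Abcg2 and Slc2a1 (middle), and Cdh5 and Slc2a1 (right), with 1 point per rat, coloured by group. Abcb1b and Tjp1 lie along a line in the 3 groups (r = 0.83), whereas the relation of Abcg2 and Slc2a1 (r = -0.62) leans on AKO rat 4KAH27 at the upper left.

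The endothelial gene Cdh5 was weakly related to the others. Of the 7 other barrier genes, 0 were associated with Cdh5 at an adjusted p under 0.05 by limma, where 2.23% of all genes were, and in the fits on Pecam1 0 of 7 passed (0.304% of all genes). In the fits on Tjp1 and on Abcb1b, over other sets of adjusted p-values, Pecam1 did pass (adjusted p = 0.00568 and 0.0168). Its correlation was r = 0.57 with Tjp1 (permutation p = 0.00212; rho = 0.59, p = 0.00136) and r = 0.54 with Abcb1b (p = 0.00308; rho = 0.56, p = 0.00249), and r was 0.70 and 0.68 without 4KAH27 and 6KAH98. At an unadjusted p under 0.05, 5 of the 7 were associated with Cdh5, where 22.0% of all genes were. Without 4KAH27 and 6KAH98, Cdh5 was associated with 1 of 7 at an adjusted p under 0.05 (Abcb1b, limma adjusted p = 0.0324) and Pecam1 with 2 of 7, beside 607 and 106 of all 17093 genes. Slc2a1 passed with Cdh5 under quantile normalization (limma adjusted p = 0.0473), beside 513 of all 17101 genes. It also passed without 10RT43, 10RT46 and 10RT48 (adjusted p = 0.0391), beside 1715 of all 17032 genes. Without 10RT43, 10RT46, 10RT48, 12RT23, 7AKO19, 4KAH27 and 6KAH98, 2 of 7 passed with Cdh5, Abcb1b (limma adjusted p = 0.0332) and Slc2a1 (0.0408), beside 1352 of all 17000 genes. Over all 30 rats the highest correlation was with Slc2a1, r = 0.51 (permutation p = 0.0075) and rho = 0.45 (p = 0.0181), with an adjusted p of 0.090, and r was 0.51 without 10RT55 and 4KAH35, the rats farthest in Cdh5. The order differed without 4KAH27 and 6KAH98, with r = 0.60 for Abcb1b, 0.50 for Tjp1 and 0.48 for Slc2a1. With Pecam1, the other endothelial marker, Cdh5 had r = 0.40 (permutation p = 0.0385) and rho = 0.37 (p = 0.0573), with an adjusted p of 0.182. This r was 0.40 without 10RT55 and 4KAH35, and 0.32 without 4KAH27 and 6KAH98. Abcg2 was the only gene of the 7 with a negative r (-0.31, permutation p = 0.167), and with rho = -0.22 (p = 0.299) it did not pass the test. Its r was -0.28 without 10RT55 and 4KAH35, and also -0.28 without 4KAH27 and 6KAH98.

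The 10 genes most like Cdh5 across the 30 rats, of 13711 with a symbol and a mean of at least 10, were Stom (r = 0.83), Sh3pxd2b (0.82), Il1r1 (0.80), Ano6 (0.79), Pdlim5 (0.78), Shc1 (0.77), Cttnbp2nl (0.77), Fn1 (0.76), Olfml2a (0.76) and Bicc1 (0.76). None of them is in the lists of barrier or endothelial genes, of which 5 of 24 endothelial identity genes were associated with Cdh5 at an adjusted p under 0.05, beside 2.23% of all genes. Genes most like other barrier genes were looked up after the values were seen. Over all 30 rats Abcb1b was most like the pericyte genes Rgs5 (r = 0.92) and Abcc9 (r = 0.89). The endothelial gene Vwf stood at rank 6 (r = 0.84), Tjp1 at rank 9 (r = 0.83) and Adgrf5 at rank 10 (r = 0.83). Lrp1 was most like Ubr4 (r = 0.97), Tjp1 like Ptprd (r = 0.92), and Slc2a1 like Tinagl1 (r = 0.89), Sgk1 (r = 0.81) and Klf15 (r = 0.81). Without 4KAH27 and 6KAH98 these values were 0.88 for Rgs5, 0.96 for Ubr4, 0.85 for Ptprd, 0.82 for Tinagl1, 0.87 for Abcc9, 0.80 for Tjp1, and less for the genes in which 4KAH27 was highest, Sgk1 (0.69) and Klf15 (0.72). The order then changed for Abcb1b, with Adgrf5 (0.91) above Rgs5 and Abcc9, and Vwf at 0.83. It also changed for Tjp1, with Atl3 (0.89) above Ptprd.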

How the data were processed

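Reads were mapped by the authors to rn7, assigned to genes of Ensembl release 105 and normalized by DESeq2 within Partek; the submitters' processing notes name Partek 10.0.22.0228, STAR 2.7.8a, Bowtie2 and DESeq2. Deposited are DESeq2-normalized counts, a signal and not whole reads. Between 81.3% and 84.9% of the low values (under 100) were whole multiples (tolerance 0.03) of a step taken as 1 read, so whole reads were not recovered. limma was fitted on log2(value + 1) for genes averaging 1 or more over the rats compared, two-sided, after testing on simulated data; all 8 genes passed. Members and lists were chosen with earlier results of these data known. The association had been designed with Cldn5; Cdh5 took its place. Named by rule are all members, the 3 other barrier genes with the smallest p per comparison, the 10 genes most like Cdh5 and the most abundant gene of cell type lists. Outside this rule, other genes, among them Tmem119, P2ry12, Cspg4 and Des, were named for their values in these data. Versions were R 4.3.3, limma 3.58.1, Python 3.11.15, numpy 2.4.6, pandas 2.3.3, scipy 1.17.1 and matplotlib 3.10.9.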

Additional observations from a re-analysis of the deposited data

Results flagged for a closer look

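A value was picked out where the gap to the nearest rat was, as a share of the range of its group of 10 rats, above the limit of Dixon's test; by chance this gives about 1 in 20 groups, and 15 of 81 groups had one (3 of 24 for barrier genes, 12 of 57 for summed lists). Among barrier genes these were Slc2a1 in AKO rat 4KAH27 (5158, next 3420), Mfsd2a in the same rat (854, next 391) and Pecam1 in HIP rat 10RT48 (616, next 486). WT rat 10RT43 stood apart in the lists of activated endothelium (1936, next 1669), astrocytes (106923, next 90243), microglia (2742, next 4563), choroid plexus (435, next 142.4), pineal gland (106, next 24.998) and cerebellum (42394, next 50.1). HIP rat 10RT48 stood apart in microglia (12774, next 5123), HIP rat 10RT46 in choroid plexus (18102, next 154.4) and pineal gland (22922, next 38.3), and HIP rat 12RT23 in cerebellum (4309, next 48.6). AKO rat 7AKO19 stood apart in choroid plexus (4122, next 198) and AKO rat 4KAH35 in blood (40655, next 16036). The differences were not tested.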

How the results depend on the processing

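No alternative gave any of the 8 genes an adjusted p under 0.05 in a comparison (821 fits of a gene, lowest adjusted p 0.131). Without the 2 rats means without 4KAH27 and 6KAH98, without the 3 rats without 10RT43, 10RT46 and 10RT48, without the 4 rats without 10RT43, 10RT46, 12RT23 and 7AKO19, and without the 7 rats without all of these 7 rats (4KAH35 was kept); all but the set of 3 rats, and the fits on AKO-named rats and with the Cdh5 covariate, were added after the values were seen. The cause of the shifts was not tested. Alternatives with Cldn5 were not run, as Cdh5 took its place. No paired analysis was possible because the replicate numbers follow the order of the samples only.

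Genes at an unadjusted p under 0.05 in HIP vs. WT rats numbered 439, and 885 with sample-quality weights, 840 without the 3 rats and 668 without the 7 rats; without single rats 309 to 779. In AKO vs. WT rats 17 genes at an adjusted p became 27 in a fit of all rats, 857 with weights, 31 with library number, 43 without the 2 rats, 53 without the 7 rats and 68 with AKO-named rats only (10 to 39 without single rats); 1594 genes at an unadjusted p became 3930 with weights. The 2 barrier genes called there became 0 with weights, without the 3, 4, 2 or 7 rats and with AKO-named rats only (0 to 2 without single rats). In HIP vs. AKO rats 29 genes became 56 in a fit of all rats, 1143 with weights, 101 without the 3 rats, 13 without the 4 rats, 103 without the 2 rats, 102 without the 7 rats and 120 with AKO-named rats only (17 to 70 without single rats); 2179 at an unadjusted p became 4289 with weights. The 2 barrier genes became 1 with weights, library number, the Cdh5 covariate and without the 3, 4, 2 or 7 rats, and 0 with AKO-named rats only (1 to 2 without single rats). The 382 genes associated with Cdh5 became 1715 without the 3 rats, 0 in WT, HIP or AKO rats alone, 73 without the 2 rats farthest in Cdh5, 607 without the 2 rats and 1352 without the 7 rats.

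Directions turned in HIP vs. WT for Mfsd2a (-0.0283 without the 4 rats, -0.0165 without the 7). In AKO vs. WT they turned for Abcb1b (0.0304 without the 7), Lrp1 (0.00959 without the 2, 0.0655 without the 7), Tjp1 (0.0909 without the 2, 0.0713 without the 7, 0.0145 with AKO-named rats), Pecam1 (0.00441 with quantile normalization) and Cdh5 (-0.0867 with weights, -0.110 with AKO-named rats). In HIP vs. AKO they turned for Abcb1b (-0.0194 without the 2, -0.0619 without the 7), Lrp1 (0.0121 without the 3, 0.0232 with the Cdh5 covariate), Tjp1 (-0.00561 without the 7), Pecam1 (0.0154 with AKO-named rats) and Cdh5 (0.0397 with weights, 0.0837 with AKO-named rats). The slope of Abcg2 on Cdh5 was 0.203 in HIP rats alone. Leaving out single rats gave, in HIP vs. WT, Abcb1b -0.0885 to 0.00851, Abcg2 -0.0743 to 0.132, Slc2a1 -0.0153 to 0.0570, Mfsd2a -0.00171 to 0.1585 and Cdh5 -0.0923 to 0.0167; in AKO vs. WT, Lrp1 -0.159 to 0.00251, Tjp1 -0.141 to 0.0428, Pecam1 -0.0796 to 0.0312 and Cdh5 -0.0400 to 0.0753; in HIP vs. AKO, Lrp1 -0.110 to 0.0518 and Cdh5 -0.101 to 0.00135.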
